A study of Mus musculus with 4 samples.

Results

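The blastocyst wells of a morpholino experiment in mouse embryos are described here, 177 of the 368 wells kept in the whole series and of 192 blastocyst wells deposited. Members were the wells of the 2 blastocyst plates with at least 2000 detected genes, and each was assigned to the control or the NKX1-2 morpholino by the deposited table of well barcodes. All groups were mouse embryos that received a morpholino, a synthetic antisense molecule that stops an RNA from being translated or spliced. Strain, age, dose, injection stage and number of embryos are not given in the labels, which name a single cell source, and no label ties a well to an embryo. By the labels, even wells of a plate received the control and odd wells the NKX1-2 morpholino, and the barcode table gives 48 barcodes to each. The files give barcodes and no positions, so the even and odd layout could not be checked. Blastocyst plate 1 kept 43 control and 47 NKX1-2 wells, and plate 2 kept 43 and 44. The other stage of the series, the morula, kept 191 wells on 2 plates and was used only to ask whether an effect differed between the stages.

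NKX1-2 is a homeobox transcription factor, a protein that binds DNA through a homeodomain. The blastocyst forms when the outer cells of the embryo become trophectoderm, a polarised epithelium that pumps fluid into a cavity and later builds the placenta. The inner cell mass then divides into the epiblast, which gives rise to the body, and the primitive endoderm, which lines the yolk sac. Embryos at this stage divide fast, raise mitochondrial respiration and make ribosomes at a high rate, and in female embryos the noncoding RNA Xist silences the paternal X chromosome, a state later lifted in the epiblast.

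Counts were summed per plate and morpholino, and the plate was the replicate (n = 2). The sums held 1084312 (control) and 1412197 (NKX1-2) counts in plate 1, and 1461141 and 1685358 in plate 2. NKX1-2 wells were deeper, with a median of 30453 against 22391 counts per well in plate 1 and 37602 against 31360 in plate 2. They also had more detected genes, with medians of 5246 against 4602 and 5689 against 5385. Mitochondrially encoded RNA made up a median of 5.33% of counts in NKX1-2 wells against 6.16% in control wells of plate 1, and 5.21% against 5.68% in plate 2. The part of these differences in the results was tested only where wells were thinned to a common depth. Levels are in CPM (counts scaled to the size of the library) of a sum after TMM scaling, log2 fold changes are NKX1-2 over control, and a gene passed at an adjusted p under 0.05 (edgeR quasi-likelihood test, 2-sided, plate as a block, Benjamini-Hochberg over 8454 genes). Since nothing says that plates came from separate cohorts of embryos, adjusted p-values speak only for these plates. The spread they use came from the trend over all genes and hardly from a gene's own plates.

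The targeted gene, Nkx1-2 (ENSMUSG00000048528), lies on chromosome 7 at 132594878 to 132599637, minus strand, in GRCm38. It had 0 counts in all 192 blastocyst wells. Over the 5643008 counts of the kept wells, 0 counts allow a level of up to 0.532 CPM. At this depth its RNA was not detectable under either morpholino, and the morpholino labels therefore have no check from the target itself.

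Of 8454 genes tested, 130 passed (1.54%), 67 higher (0.793%) and 63 lower (0.745%) in NKX1-2 wells. The shares of 0.793% and 0.745% are the background for each count of list members below. The median size of the change among them was 1.12 on the log2 scale, and 40 of those that rose and 33 of those that fell changed by more than 2-fold. All 130 had the same direction in both plates, against 57.0% of all tested genes. That share among the 130 is tied to the test, which used both plates. The same holds where groups of sums are said below not to overlap. Each group has only 2 sums, the genes were picked by the test, and the share of all tested genes without overlap is not given here. The plot of the effect in both plates shows the genes that passed along the diagonal of shared direction.

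**Figure D1:**
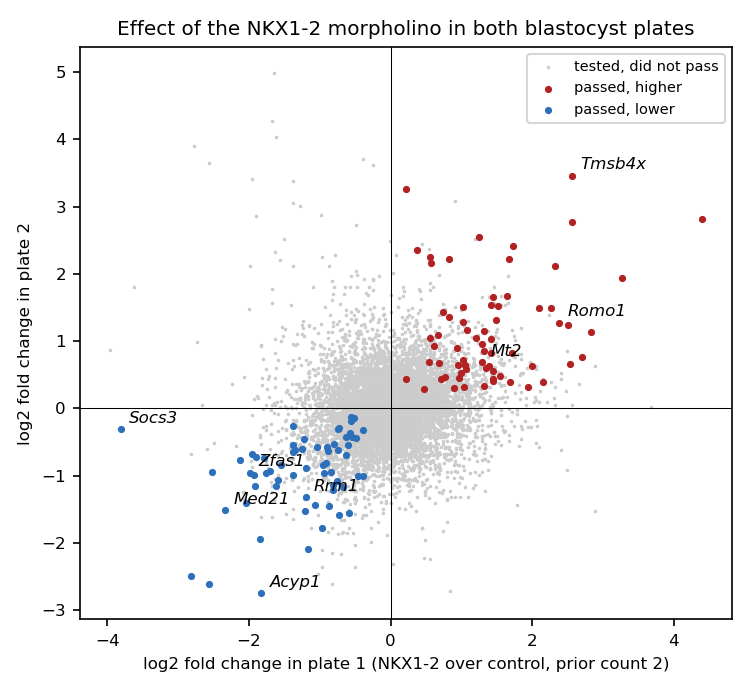
Log2 fold change of each tested gene in blastocyst plate 1 (x axis) and plate 2 (y axis), NKX1-2 over control, on log CPM (prior count 2). The 67 genes that passed higher (red) lie in the upper right quadrant and the 63 that passed lower (blue) in the lower left, among 8454 tested genes (grey points did not pass).

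The count rests on a small design. With 4 sums and 1 residual degree of freedom, the fit took the spread from the trend over all genes. DESeq2 called 5 genes, and none passed by edgeR when deep wells were thinned to the plate median or when each gene was taken without its highest well, where 742 and 739 genes had an unadjusted p under 0.05. As reported, 958 had one. Genes are therefore described with the number of alternative analyses, of 15, in which they passed. Not every gene was tested in all 15 (Tmsb4x and Slc38a4 in 13, Obox8 in 12), so these numbers compare only loosely between genes. Of the 130 genes, 11 passed in 10 or more, 44 in 8 or more and 17 in 2 or fewer.

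Both metallothioneins, small cysteine-rich proteins that bind zinc and copper and buffer cells against metal and oxidative stress, rose, with the smallest p-values of all 8454 tested genes. Mt2 (ENSMUSG00000031762, chromosome 8, 94172664 to 94173568, plus strand) was at 1432 and 2164 CPM in the control sums of plates 1 and 2, and at 3518 and 3496 CPM in the NKX1-2 sums. The groups did not overlap, and the mean rose from 1798 ± 517 to 3507 ± 15.4 CPM (SD, n = 2). On the log2 scale this was 0.99 (SE 0.10, adjusted p = 6.26e-18). Mt1 (ENSMUSG00000031765, chromosome 8, 94179082 to 94180327, plus strand) was at 1459 and 1947 CPM in the control sums and at 2960 and 3198 CPM in the NKX1-2 sums. Here too both NKX1-2 sums lay above both control sums, and the log2 fold change was 0.87 (SE 0.10, adjusted p = 2.57e-13).

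Every kept well had a count of Mt1 and of Mt2, so the share of wells with a count was 100% under both morpholinos and the level per well carries the difference. In plate 1, Mt1 ranged from 232 to 2694 CPM of the well's counts over control wells (median 1285) and from 984 to 6229 CPM over NKX1-2 wells (median 2706). In plate 2 the control range was 348 to 4566 CPM (median 1661) and the NKX1-2 range 594 to 6266 CPM (median 3015). Single wells therefore overlapped while the medians did not. Both genes passed in 13 of 15 alternatives, DESeq2 included. The exceptions were the 2 in which no gene passed, and the log2 fold change lay between 0.71 and 1.30 for Mt2 and between 0.73 and 1.02 for Mt1.

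Mt1 and Mt2 are neighbours on chromosome 8 and moved together, so the sequence before each start is shown. Transcription of both is known to be driven by metal response elements, short sequences bound by the zinc-sensing factor MTF1. The windows below are from RefSeq on GRCm38.p6, 250 bases before to 50 bases after the start on the plus strand, 5′ to 3′. Capitals mark matches to TGCACNC or TGCGCNC, the core of the element, on either strand. The Mt1 window is chr8:94178839-94179138 and the Mt2 window chr8:94172368-94172667, whose start in RefSeq lies slightly before the gene start given above.
Mt1: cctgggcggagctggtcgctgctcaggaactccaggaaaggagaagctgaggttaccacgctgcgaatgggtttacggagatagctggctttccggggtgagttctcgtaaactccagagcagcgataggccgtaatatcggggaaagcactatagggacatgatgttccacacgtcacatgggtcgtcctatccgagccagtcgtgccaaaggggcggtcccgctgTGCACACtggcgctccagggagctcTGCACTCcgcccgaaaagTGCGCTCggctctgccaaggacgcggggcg
Mt2: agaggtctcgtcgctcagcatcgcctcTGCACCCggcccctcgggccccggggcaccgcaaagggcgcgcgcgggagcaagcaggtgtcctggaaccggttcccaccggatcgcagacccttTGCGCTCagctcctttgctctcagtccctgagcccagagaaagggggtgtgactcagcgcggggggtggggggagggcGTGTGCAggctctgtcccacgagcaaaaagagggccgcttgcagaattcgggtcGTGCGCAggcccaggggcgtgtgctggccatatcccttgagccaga

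The Mt1 window held 3 matches, all on the strand of the gene, and the Mt2 window held 4, of which 2 were on that strand. At least 4 matches were found in 61 of the 6158 tested genes with a promoter in the table (0.991%). At least 1 was found in 2259 of them (36.7%), in 18 of 58 genes that rose (31.03%) and in 23 of 45 that fell (51.1%). The cut-off of 4 is the number in the Mt2 window itself, so the 0.991% is no test of Mt2. The share with at least 3, as in Mt1, is not given here. The core bound by many homeodomain proteins, TAATTA, which reads the same on both strands, was in 146 of the 6158 windows (2.37%). It was in 1 of the 58 windows of higher genes (1.72%), that of the noncoding RNA AU019990, and in 1 of the 45 of lower genes (2.22%), that of the zinc finger gene Zfp947. Neither Mt window held it in these letters. A match is a description of the letters and says nothing of binding.

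In the list of metallothioneins and apolipoproteins, 2 of 8 tested genes rose, Mt1 and Mt2, and 2 fell, Apoa1 and Apoe, against 0.793% and 0.745% over all genes. The list joins a pair of unlike families, and its other members did not pass. Apoa1, the main protein of high-density lipoprotein, was at 72.6 and 91.7 CPM in the control sums and at 22.7 and 40.4 CPM in the NKX1-2 sums. Apoe, which carries lipids between cells, was at 96.8 and 80.5 CPM against 36.2 and 39.8 CPM. Neither gene's groups overlapped, and both fell, Apoa1 by 1.40 (SE 0.29, adjusted p = 0.000434) and Apoe by 1.21 (SE 0.28, adjusted p = 0.00312), both as log2 fold changes. Both passed in 8 alternatives. For Apoa1, 1 well held 32 of the 75 counts of the plate 1 control sum. Without its highest well the log2 fold change was -1.06 (adjusted p = 0.373), in an edgeR fit where no gene passed. The share of wells with a count of Apoa1 was 10 of 43 control against 13 of 47 NKX1-2 wells in plate 1, higher under NKX1-2, and 31 of 43 against 24 of 44 in plate 2. Apoe was at -0.10 in the wells that had Xist but no Y-linked counts and at -1.25 in those with Y-linked counts and no Xist, and the difference between these classes did not pass (adjusted p = 0.999).

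Romo1 (ENSMUSG00000067847, chromosome 2, 156144039 to 156145797, plus strand) encodes a mitochondrial inner membrane protein that modulates reactive oxygen species. It was at 37.7 and 91.0 CPM in the control sums and at 202 and 222 CPM in the NKX1-2 sums. All NKX1-2 values lay above the control values, and the mean rose from 64.4 ± 37.6 to 212 ± 13.8 CPM (SD, n = 2). On the log2 scale this was 1.78 (SE 0.24, adjusted p = 6.60e-11). It passed in 12 alternatives.

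Romo1 was also found in more wells. A count was present in 24 of 43 control wells of plate 1 (55.8%, 95% Wilson interval 41.1 to 69.6) and in 47 of 47 NKX1-2 wells. In plate 2 it was present in 40 of 43 control wells and 43 of 44 NKX1-2 wells. When each well was thinned to 10000 counts, which left out 1 control and 1 NKX1-2 well, the share over both plates was 44.7% in control and 86.7% in NKX1-2 wells. The difference in share thus remained at equal depth. Intervals and floors here cover counting error only.

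Cox8a (ENSMUSG00000035885, chromosome 19, 7215153 to 7217616, minus strand), a subunit of cytochrome c oxidase, was at 455 and 767 CPM in the control sums and at 1156 and 1159 CPM in the NKX1-2 sums. The groups did not overlap, and the log2 fold change was 0.96 (SE 0.13, adjusted p = 6.61e-10), with 10 alternatives passed. Ndufs7, a subunit of complex I, also rose (0.67, SE 0.20, adjusted p = 0.0485) but passed in only 2 alternatives. These were the 2 of 78 tested nuclear genes of oxidative phosphorylation that passed, and 0 fell. The median of that list was 0.08, with 0.18 in plate 1 and 0.00 in plate 2, and 0.793% of all tested genes rose. Among 7 tested mitochondrially encoded genes 1 fell, mt-Cytb, the cytochrome b of complex III (-0.33, SE 0.09, adjusted p = 0.0137), which passed in 3 alternatives.

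**Figure D2:**
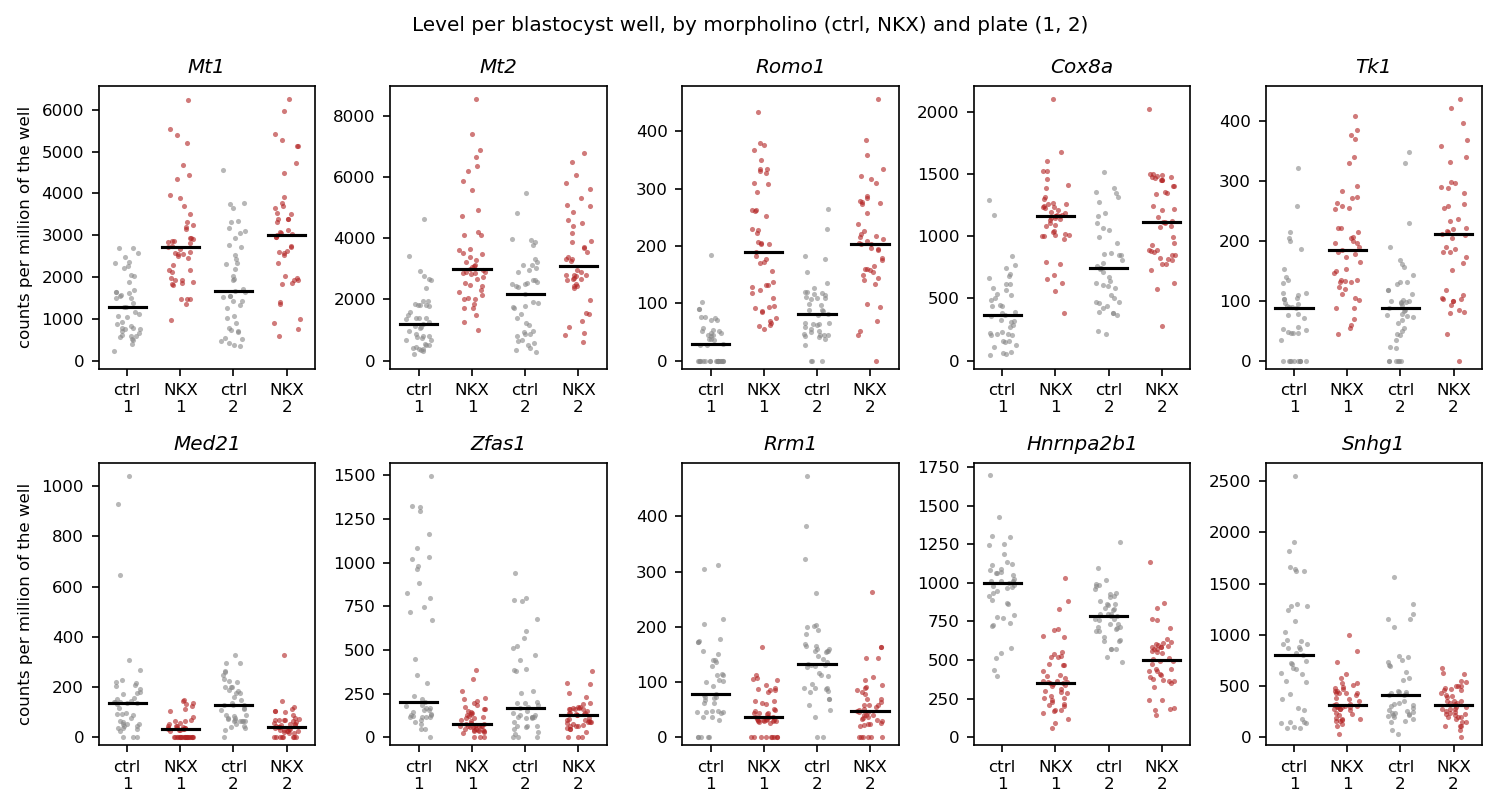
Level of 10 genes in each kept blastocyst well, in CPM of the well's own counts (y axis), by morpholino and plate (x axis, ctrl for control and NKX for NKX1-2). Points are wells (43, 47, 43 and 44) and bars are medians, which for Mt1 were 1285 and 2706 in plate 1 and 1661 and 3015 in plate 2, while single wells overlapped.

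Tk1 and Rrm1, both of which supply deoxynucleotides, moved in opposite directions. Tk1 (ENSMUSG00000025574, chromosome 11, 117815526 to 117826092, minus strand), the thymidine kinase of the salvage pathway, was at 90.0 and 93.7 CPM in the control sums and at 192 and 213 CPM in the NKX1-2 sums. Rrm1 (ENSMUSG00000030978, chromosome 7, 102441695 to 102469771, plus strand), the large subunit of ribonucleotide reductase, was at 111 and 147 CPM in the control sums and at 47.6 and 57.9 CPM in the NKX1-2 sums. Neither gene's groups overlapped. Tk1 rose by 1.14 (SE 0.22, adjusted p = 0.000107), Rrm1 fell by 1.28 (SE 0.26, adjusted p = 0.000245), and they passed in 10 and 11 alternatives.

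The shares of wells followed. At 10000 counts per well, Tk1 had a count in 52.9% of control and 84.4% of NKX1-2 wells, and Rrm1 in 72.9% and 46.7%. In all, 4 of 55 tested genes of DNA replication and deoxynucleotide supply rose and 1 fell, with a median of 0.02, while 0.793% of all tested genes rose and 0.745% fell. The others that rose were Rfc4, a subunit of the clamp loader (1.26, SE 0.28, adjusted p = 0.00109), Cdc45, part of the replicative helicase (1.13, SE 0.29, adjusted p = 0.0135), and Tyms, thymidylate synthase (0.62, SE 0.15, adjusted p = 0.0051). They passed in 5, 5 and 8 alternatives. None of 39 tested mitosis and spindle genes passed by edgeR, and 5 had an unadjusted p under 0.05 (3 higher, 2 lower).

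Hnrnpa2b1 (ENSMUSG00000004980, chromosome 6, 51460932 to 51469894, minus strand), an RNA-binding protein that takes part in splicing, was at 1016 and 812 CPM in the control sums and at 389 and 516 CPM in the NKX1-2 sums. Both NKX1-2 sums lay below both control sums, and the log2 fold change was -1.02 (SE 0.14, adjusted p = 1.86e-09), with 10 alternatives passed. It was the 1 of 20 tested hnRNP genes that passed, and the list median was -0.06.

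Med21 (ENSMUSG00000030291, chromosome 6, 146642547 to 146650732, plus strand), a subunit of Mediator, the complex that links transcription factors to RNA polymerase II, was at 204 and 149 CPM in the control sums. In the NKX1-2 sums it was at 39.1 and 51.3 CPM, below both. The mean fell from 176 ± 39.3 to 45.2 ± 8.63 CPM (SD, n = 2). On the log2 scale this was -1.94 (SE 0.25, adjusted p = 2.94e-11). It passed in 11 alternatives, DESeq2 included. At 10000 counts per well, Med21 had a count in 70.6% of control wells and 36.7% of NKX1-2 wells. In wells with Y-linked counts and no Xist, of which only 6 received the NKX1-2 morpholino, its value was -0.28 and did not pass, and the difference between the classes of wells did not pass either (adjusted p = 0.999). Med21 was the 1 of 31 tested Mediator genes that passed, and the list median was 0.13.

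Zfas1 (ENSMUSG00000074578, chromosome 2, 167062934 to 167065862, plus strand), a noncoding RNA whose introns carry small nucleolar RNAs, was at 420 and 280 CPM in the control sums and at 105 and 144 CPM in the NKX1-2 sums. The groups did not overlap, and Zfas1 fell by 1.47 (log2; SE 0.20, adjusted p = 2.13e-10), with 12 alternatives passed. Its wells were spread widely: in plate 1, control wells ranged from 0 to 1499 CPM (median 204) and NKX1-2 wells from 0 to 382 CPM (median 77.6). In plate 2 the control range was 0 to 939 CPM (median 168) and the NKX1-2 range 0 to 379 CPM (median 127), a smaller gap. Part of the plate 1 control wells lay above every NKX1-2 well there. The highest of them had 107, 45.6 and 272 CPM of Cox8a, against a median of 368 CPM over control wells of that plate. The same wells had 0, 45.6 and 0 CPM of Romo1 (median 28.6 over those control wells). Of Snhg1, described below, they had 1285, 1278 and 1816 CPM (median 803). These 4 genes therefore need not be separate changes in plate 1. A link between the changes of these genes was not tested. A count was present in 82 of 86 control and 85 of 91 NKX1-2 wells, so the share of wells differed little while the level per well differed. Of its short sequence stretches, 17.2% also occur in other genes, so part of its reads is uncertain.

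Among the genes that reached 20 CPM in a group, the largest rise was that of Tmsb4x (ENSMUSG00000049775, chromosome X, 167207093 to 167209315, minus strand), which encodes thymosin beta 4, a peptide that sequesters actin monomers. It was at 2.90 and 2.08 CPM in the control sums and at 24.2 and 37.4 CPM in the NKX1-2 sums, which did not overlap (log2 fold change 3.63, SE 0.54, adjusted p = 1.89e-08). A count was present in 3 of 43 control wells in each plate, against 17 of 47 NKX1-2 wells in plate 1 and 22 of 44 in plate 2. At 10000 counts per well the share was 4.71% against 22.2%. The control sums together held 6 counts of it and the NKX1-2 sums 96, so the fold is loosely set. Tmsb4x passed in 9 of the 13 alternatives that tested it.

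The other large rises concerned genes of low level. Slc38a4, an imprinted amino acid transporter, was at 11.6 and 7.64 CPM in the control sums and at 34.1 and 27.1 CPM in the NKX1-2 sums (1.68, SE 0.42, adjusted p = 0.00932). It was the 1 of 11 tested imprinted genes that passed, with a list median of 0.36. Atxn2, an RNA-binding protein, was at 15.5 and 19.4 CPM against 46.2 and 50.7 CPM (1.46, SE 0.34, adjusted p = 0.00334). Vrk3, of the vaccinia-related kinase family, was at 3.87 and 7.64 CPM against 21.3 and 24.1 CPM (1.95, SE 0.48, adjusted p = 0.00638). In none of the 3 did the groups overlap, and they passed in 7, 8 and 6 alternatives.

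Some of these rises lay mostly in 1 plate. Obox8, of the oocyte-specific homeobox family, was at 7.74 and 9.24 CPM in control and NKX1-2 wells of plate 1 and at 2.78 and 39.2 CPM in plate 2 (2.16, SE 0.51, adjusted p = 0.00364). Cst7, which encodes the protease inhibitor cystatin F, went from 47.4 to 71.0 CPM in plate 1 and from 21.5 to 101 CPM in plate 2 (1.39, SE 0.29, adjusted p = 0.00056). AA467197 showed the reverse, from 26.1 to 158 CPM in plate 1 and from 45.8 to 73.6 CPM in plate 2 (1.57, SE 0.28, adjusted p = 2.34e-05). They passed in 5, 4 and 4 alternatives. Rab26os, annotated as an antisense RNA, rose by 2.06 (SE 0.39), but the use of strand in the counting is not given, so its reads cannot be told from those of an overlapping gene.

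Acyp1 (ENSMUSG00000008822, chromosome 12, 85272398 to 85288438, minus strand), which encodes an acylphosphatase, fell most among the genes that reached 20 CPM. It was at 21.3 and 28.5 CPM in the control sums and at 4.97 and 3.02 CPM in the NKX1-2 sums, with no overlap (log2 fold change -2.64, SE 0.49, adjusted p = 4.06e-05). A count was present in 17 of 43 control wells of plate 1 (39.5%, 95% Wilson interval 26.4 to 54.4) against 5 of 47 NKX1-2 wells (10.6%, 4.6 to 22.6), and in 24 of 43 against 4 of 44 in plate 2. At 10000 counts per well the shares were 17.6% and 3.33%. It passed in 9 of the 12 alternatives that tested it.

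**Figure D3:**
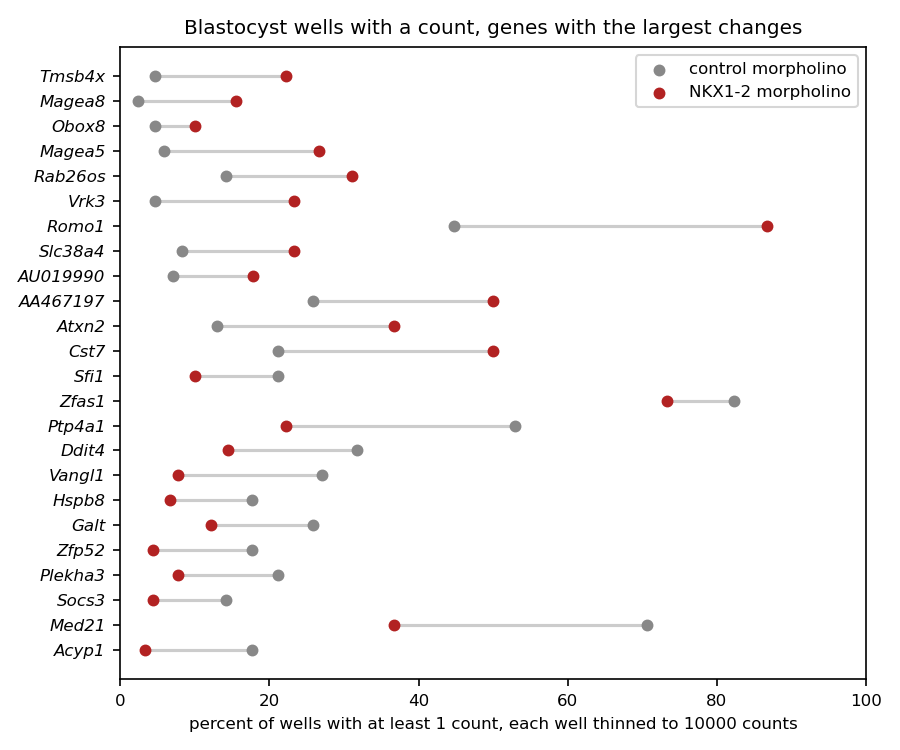
Percent of kept blastocyst wells with at least 1 count (x axis, each well thinned to 10000 counts, both plates pooled, 85 control and 90 NKX1-2 wells) for the 12 genes with the largest rise and the 12 with the largest fall. Grey points are control and red points NKX1-2 wells; Romo1 (44.7% against 86.7%) and Med21 (70.6% against 36.7%) show the widest gaps.

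Plekha3, a lipid-binding protein of the Golgi, was at 33.9 and 21.5 CPM in the control sums and at 7.10 and 7.24 CPM in the NKX1-2 sums (-1.90, SE 0.44, adjusted p = 0.00328). Ptp4a1, a protein tyrosine phosphatase, was at 106 and 56.2 CPM against 26.997 and 27.7 CPM (-1.50, SE 0.30, adjusted p = 0.000157). Galt, an enzyme of galactose use, was at 29.0 and 35.4 CPM against 12.1 and 7.24 CPM (-1.76, SE 0.41, adjusted p = 0.00336). The groups of all 3 did not overlap, and they passed in 8, 8 and 7 alternatives.

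Socs3, which inhibits cytokine signalling through STAT3, fell unevenly, from 38.7 to 1.42 CPM in plate 1 and from 14.6 to 11.5 CPM in plate 2 (-1.90, SE 0.49, adjusted p = 0.0168). It passed in 3 alternatives, as did Zfp52, a zinc finger gene (-1.78, SE 0.48), and Sfi1, a centrosomal protein (-1.41, SE 0.39). Vangl1, a planar cell polarity protein, was at -1.52 on the log2 fold change scale (SE 0.45, adjusted p = 0.0497) and passed in 0 of 12 alternatives.

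The next question was whether the wells differed in cell lineage. No trophectoderm gene passed by edgeR out of 19 tested, 1 higher and 2 lower at an unadjusted p under 0.05, and the median log2 fold change was 0.05. Cdx2, the transcription factor that specifies trophectoderm, was at 12.6 and 9.03 CPM in the control sums and at 12.8 and 7.84 CPM in the NKX1-2 sums (-0.08, adjusted p = 0.976). Gata3, a second trophectoderm factor, was at 53.2 and 71.5 CPM against 111 and 76.0 CPM (0.55, SE 0.27, adjusted p = 0.403). The keratins Krt8 (0.21) and Krt18 (0.25) did not pass either, nor did any of 26 tested genes of cell junctions and fluid transport by edgeR (1 higher and 4 lower at an unadjusted p under 0.05).

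In the inner cell mass and epiblast list 2 of 17 tested members fell and 0 rose, against 0.745% and 0.793% over all genes. The list median was -0.32 in the fit, but -0.09 and -0.10 in plates 1 and 2, where values are shrunk at low counts. Utf1, a chromatin-associated protein of pluripotent cells, was at 88.1 and 97.2 CPM in the control sums and at 29.1 and 53.7 CPM in the NKX1-2 sums, which did not overlap. It fell by 1.19 (SE 0.28, adjusted p = 0.00334), and its share of wells at 10000 counts was 49.4% against 30.0%. Dppa5a, an RNA-binding protein of pluripotent cells, fell by 0.36 (SE 0.10, adjusted p = 0.0337), and 57.2% of its sequence stretches are shared with other genes. They passed in 5 and 4 alternatives.

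The core pluripotency factors did not pass. Nanog was at 69.7 and 127 CPM in the control sums and at 66.8 and 86.9 CPM in the NKX1-2 sums (-0.32, adjusted p = 0.717). Pou5f1 (0.45, adjusted p = 0.556), Sox2 (0.57, adjusted p = 0.806) and Fgf4 (-0.53, adjusted p = 0.778), which signals from epiblast to primitive endoderm, had wide errors too, with standard errors of 0.27, 0.59 and 0.52. Among 9 tested primitive endoderm genes 0 passed by edgeR, with 0 at an unadjusted p under 0.05. Gata6, which starts that lineage, was at 103 and 154 CPM against 128 and 139 CPM (0.07, SE 0.23). Gata4, Sox17, Pdgfra and Eomes were too low to test. In sums over many wells, fewer cells of a type and less RNA per cell cannot be told apart.

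The wells were checked against their label and for other cell types. Trophectoderm markers summed to 1709 to 1802 CPM over the 4 sums and inner cell mass and epiblast markers to 3468 to 4275 CPM. The inner cell mass sums were lower in NKX1-2 wells of both plates (3468 against 4275 and 3565 against 4184 CPM). Most of that gap was 1 gene, Dppa5a, which went from 2889 to 2197 CPM in plate 1 and from 2801 to 2243 CPM in plate 2 and whose reads are uncertain. Markers of cumulus and granulosa cells, which surround the egg, summed to 19 to 26 CPM, with 6 of 13 at 0. Oocyte and maternal genes had 0 of 4 tested members that passed by edgeR (0 at an unadjusted p under 0.05). Early cleavage genes, which mark the embryo's first divisions, had 0 of 6 that passed by edgeR and 3 higher at an unadjusted p under 0.05. Their summed level was 538 (control) and 412 (NKX1-2) CPM in plate 1 and 337 and 672 CPM in plate 2, so the plates went opposite ways.

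In the Wnt pathway 0 of 17 tested genes passed by edgeR (1 lower at an unadjusted p under 0.05). Ctnnb1, which encodes beta-catenin, was at 74.5 and 75.0 CPM against 76.0 and 82.0 CPM (0.08, SE 0.26), and Tcf7l2, a DNA-binding partner of it, was at a log2 fold change of -1.35 with SE 0.54 (adjusted p = 0.234). In the Hippo and YAP list, the pathway that sets outer against inner cell identity, 0 of 20 passed by edgeR (2 lower at an unadjusted p under 0.05), with a median of -0.39 that was -0.42 in plate 1 and -0.19 in plate 2. Among 32 tested p53 targets 1 fell, Tigar, which restrains glycolysis (-0.67, SE 0.20, adjusted p = 0.0497), with 3 alternatives passed. Cdkn1a, the p53-induced cell cycle inhibitor, was at 327 and 210 CPM against 374 and 171 CPM (-0.05, SE 0.19), and Mdm2, the ubiquitin ligase of p53, had a log2 fold change of -0.22 (SE 0.26).

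The integrated stress response list, genes induced when translation initiation is inhibited, had 2 of 24 tested genes lower and 0 higher, against 0.745% and 0.793% over all genes. Ddit4, a stress-induced inhibitor of the growth kinase complex mTORC1, was at 82.2 and 36.1 CPM in the control sums and at 17.8 and 20.5 CPM in the NKX1-2 sums. Its groups did not overlap (-1.51, SE 0.32, adjusted p = 0.000797), and it passed in 7 of the 12 alternatives that tested it. Phgdh, which starts serine synthesis, fell by 0.66 (SE 0.19, adjusted p = 0.0304), and 55.9% of its stretches are shared with other genes. Of 7 tested interferon and MHC genes 1 rose, the interferon-induced Oasl2 (1.91, SE 0.51, adjusted p = 0.02). Its value in wells that had Xist but no Y-linked counts was -0.14, the opposite direction. Among 24 tested glycolysis and sugar genes 2 fell, against 0.745% over all genes, Galt and the glycolytic enzyme Gapdh (-0.75, SE 0.21, adjusted p = 0.0314). Of the stretches of Gapdh, 27.2% occur in other genes, so its reads are uncertain.

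Of 37 tested actin and actomyosin genes 2 rose and 3 fell, against 0.793% and 0.745% over all genes, and the list median was -0.08. Beside Tmsb4x, Tpm1, a tropomyosin that coats actin filaments, rose (0.81, SE 0.24, adjusted p = 0.0443). Tagln2, an actin-binding transgelin, was at 280 and 307 CPM in the control sums and at 164 and 144 CPM in the NKX1-2 sums. It fell by 0.93 (SE 0.20, adjusted p = 0.00056) with no overlap and passed in 9 alternatives. Anxa2, a membrane-binding annexin (-0.91, SE 0.25, adjusted p = 0.0304), and its partner S100a10 (-0.998, SE 0.29, adjusted p = 0.0366) also fell, and passed in 5 and 3 alternatives.

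In the cytosolic ribosomal protein list 1 of 88 rose and 2 fell, with 28 above and 60 below 0 and a median of -0.08. Over all 8454 tested genes, 4123 lay above and 4331 below 0, and 0.793% rose and 0.745% fell. Rpl3 was at 2037 and 2464 CPM in the control sums and at 1346 and 1698 CPM in the NKX1-2 sums, without overlap (-0.57, SE 0.11, adjusted p = 5.81e-05), and passed in 9 alternatives. Rpl12 fell (-0.48, SE 0.11) and Rplp0 rose (0.32, SE 0.09). Of the stretches of these 3 genes, 37.6%, 19.1% and 42.8% occur in other genes, which makes their reads uncertain.

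Of 101 tested ribosome biogenesis genes 1 rose, Pwp1 (1.00, SE 0.25, adjusted p = 0.00864), and 1 fell, Taf1d, part of the factor that recruits RNA polymerase I (-0.51, SE 0.14, adjusted p = 0.0278). The nucleolar proteins Npm1 (-0.13, SE 0.09), Ncl (0.08, SE 0.11) and Fbl (0.06, SE 0.18) did not pass. Nup214, a nuclear pore protein, was at 30.96 and 27.8 CPM against 64.7 and 81.4 CPM and rose by 1.32 (SE 0.30, adjusted p = 0.00237), the 1 of 27 nuclear pore genes that passed. In the proteasome list, Psma7, a core subunit, rose (0.38, SE 0.11) and Psmg3, an assembly chaperone, fell (-0.88, SE 0.26), out of 44.

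**Figure D4:**
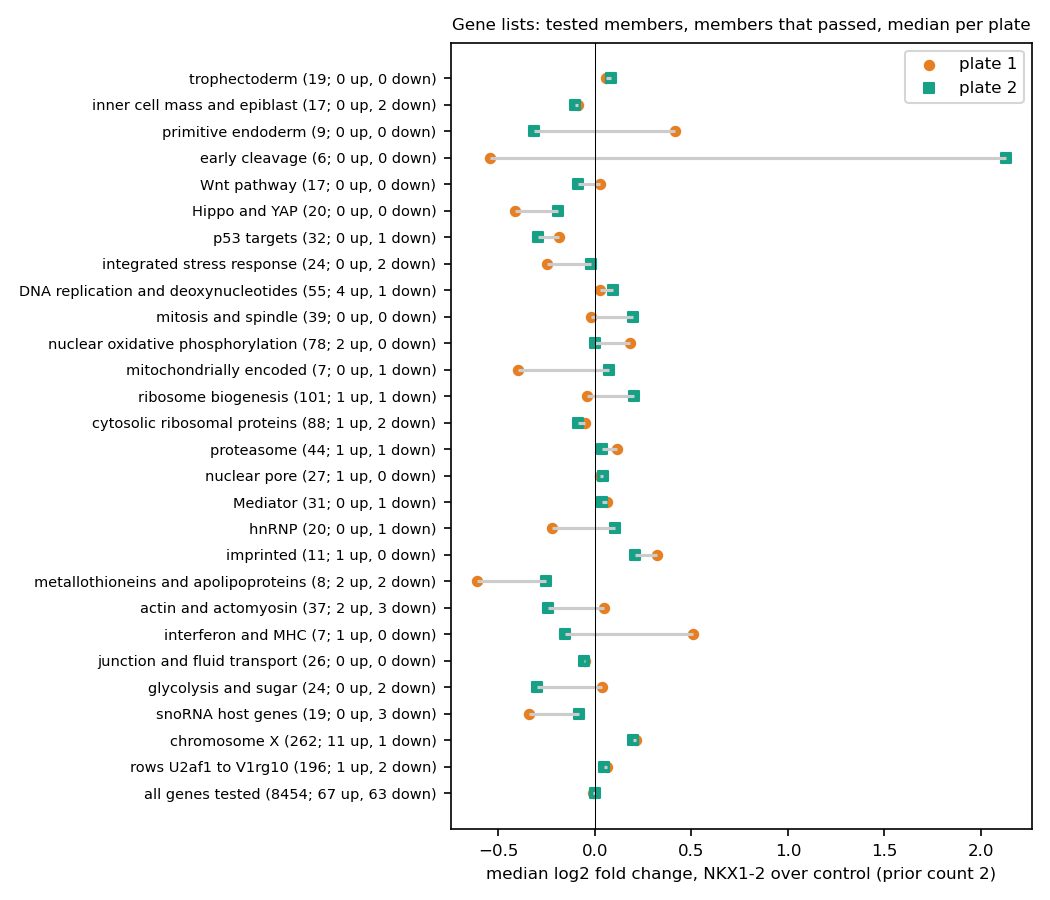
Median log2 fold change of the tested members of the gene lists shown (x axis, NKX1-2 over control, prior count 2) in plate 1 (circles) and plate 2 (squares), with the number tested and the numbers that passed higher and lower beside each name. Lists with few tested members, such as the oocyte and maternal genes (4 tested), are left out. Most medians lie near that of all 8454 tested genes, while the 6 early cleavage genes differ most between plates and the 262 X-linked genes lie at 0.22 and 0.20. Other lists also differ in direction between plates, among them primitive endoderm (0.41 and -0.31) and interferon and MHC genes (0.51 and -0.15).

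The blastocyst plates also hold 344 neighbouring rows of the gene table, U2af1 to V1rg10, that have 0 counts in both morula plates and 1.68% and 1.67% of the counts of blastocyst plates 1 and 2. Of these, 196 could be tested, and 1 rose and 2 fell, to be read against the 0.793% and 0.745% over all genes. Uchl5, a deubiquitinase of the proteasome, rose from 93.9 to 189 CPM in plate 1 and from 131 to 188 CPM in plate 2 (0.76, SE 0.22, adjusted p = 0.0406). Urod, an enzyme of heme synthesis, fell from 101 to 37.7 CPM and from 80.5 to 54.9 CPM (-0.96, SE 0.27, adjusted p = 0.0355). Utf1, above, was the other. Both Uchl5 and Urod had non-overlapping groups and passed in 1 and 3 alternatives. The alternatives that used the morula plates left out these 344 rows.

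The wells of the 2 morpholinos differed in sex class. Wells with Xist and without counts of the Y-linked genes Eif2s3y, Ddx3y and Kdm5d (female-class) made up 15 of 43 control and 35 of 47 NKX1-2 wells in plate 1, and 6 of 43 and 20 of 44 in plate 2. Wells with Y-linked counts and no Xist (male-class) made up 14 control and 4 NKX1-2 wells in plate 1, and 16 and 2 in plate 2. In plate 2, 19 control and 22 NKX1-2 wells had both, against 8 and 7 in plate 1, so the class is uncertain there. Xist itself was at 626 and 163 CPM in the control sums and at 914 and 846 CPM in the NKX1-2 sums (1.43, SE 0.95, adjusted p = 0.821).

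X-linked genes rose more often than autosomal ones. Of 262 tested, 11 rose (4.20%) and 1 fell, against 56 of 8135 autosomal genes that rose (0.688%), and their median log2 fold change was 0.21 against -0.02 for autosomes. The 11, named here after their values were seen, were Tmsb4x, Magea8, Magea5, Atp6ap2, Ftsj1, Rbbp7, Ssr4, Timm17b, Gm364, Fam122b and Tsix. Tsix is the antisense partner of Xist, and with the use of strand not given its reads cannot be told from those of Xist. Magea8 and Magea5 share 57.1% and 62.0% of their stretches with other genes. In the morula Tmsb4x also rose (log2 fold change 2.49, adjusted p = 0.0366, edgeR), while Magea8 (0.38) and Magea5 (0.22) did not pass. Tmsb4x, Magea8 and Magea5 could not be tested with sex class as a block. In female-class wells alone their log2 fold changes were 2.69, 2.10 and 1.36, against 3.63, 3.23 and 2.13 as reported. None of these passed in female-class wells. The part of sex class in their rises was not tested further. Sums were also made per plate, morpholino and sex class, from female-class and male-class wells only. Compared with plate and sex class as a block, the 125 X-linked genes that could be tested had a median of 0.04. As reported, the same genes had a median of 0.26. In female-class wells alone the median of 184 X-linked genes was -0.02.

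**Figure D5:**
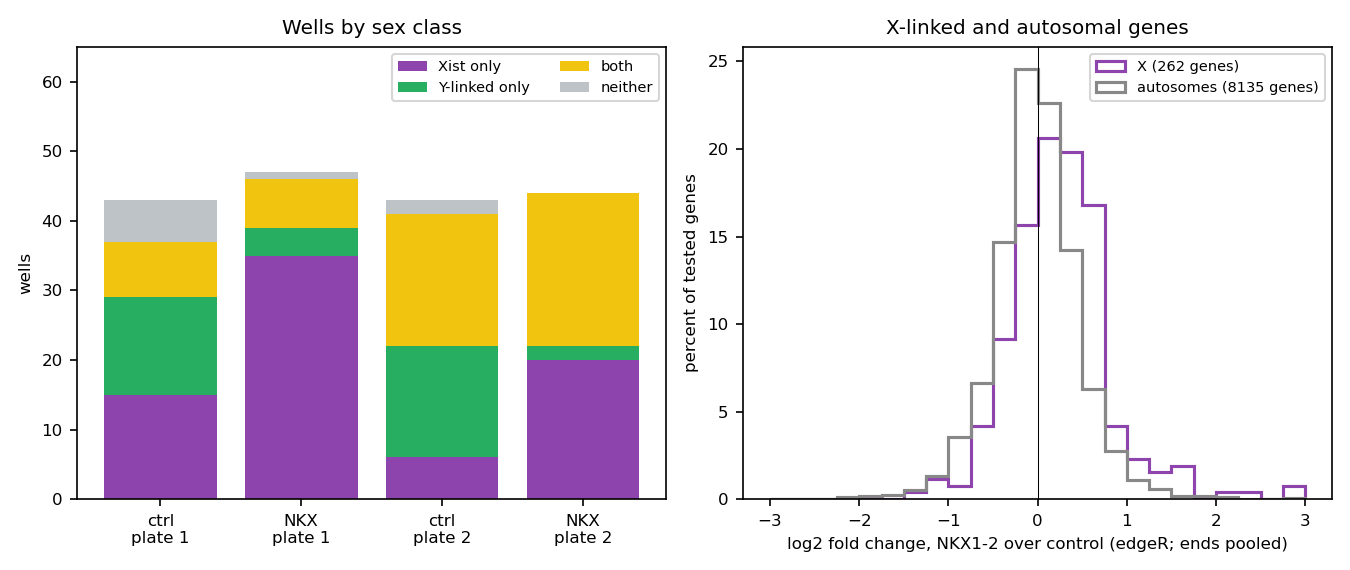
Left, kept blastocyst wells (y axis) by morpholino and plate, split into wells with Xist only, Y-linked counts only, both or neither. Right, percent of tested genes (y axis) by log2 fold change, NKX1-2 over control (x axis), for 262 X-linked and 8135 autosomal genes; female-class wells were 35 of 47 NKX1-2 against 15 of 43 control wells in plate 1, and the X-linked genes are shifted to the right, with a median of 0.21.

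The 6 X-linked genes that rose and could be tested with sex class as a block had a median of 0.97 as reported and 0.41 with it. The 39 higher autosomal genes that could be tested so had a median of 0.98 as reported and 0.89 with the block, and the 46 lower ones -0.92 and -0.75. All 93 of the 130 genes tested there kept their direction. That fit left out wells with both or neither kind of count, among them 19 control and 22 NKX1-2 wells of plate 2. Its male-class NKX1-2 sums came from 4 and 2 wells. It reused wells that gave the calls, so the shared direction is tied to the calls. Of the genes named above, Mt1, Mt2, Romo1, Cox8a, Tk1, Rfc4, Rrm1, Zfas1 and Snhg1 passed in that fit. Bola1 and the gene model Gm26917, which lie outside the naming rule, made up the 11 that did. Snhg1, like Zfas1 a host of small nucleolar RNAs, was at 867 and 522 CPM in the control sums and at 363 and 342 CPM in the NKX1-2 sums (-0.93, SE 0.16, adjusted p = 1.97e-06). No gene passed the test of whether the effect differed between the classes by edgeR (0 of 4218, with 107 at an unadjusted p under 0.05).

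Finally, the effect in the blastocyst was set against that in the morula in 1 fit of all 4 plates, where 2 of 10873 genes differed (0.0184%). Sex class was spread the other way in the morula, with 10 of 48 NKX1-2 against 25 of 48 control wells of female class on plate 1 and 23 of 47 against 27 of 48 on plate 2, and its part in this comparison was not tested. Apoa1 and the noncoding gene model 4930500L23Rik were the 2, and their values are given among the results for a closer look. For the lead genes the difference did not pass. Mt2 had a log2 fold change of 0.24 in the morula (adjusted p = 0.507) and a difference of 0.75 (adjusted p = 0.335), and Mt1 values of 0.22 (adjusted p = 0.351) and 0.65 (adjusted p = 0.216). Among the genes that passed in the morula too were Acyp1, Med21, Hnrnpa2b1, Nup214 and Tk1, with log2 fold changes of -3.23, -1.50, -1.07, 1.78 and 0.78 there. Socs3, Plekha3 and Ddit4 were at -0.26, -0.18 and -0.17 in the morula, but the differences from the blastocyst did not pass (adjusted p = 0.871, 0.506 and 0.335).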

How the data were processed

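The deposited values are whole-number counts per gene and well barcode, which the authors made per plate without normalization. Per the submitters' processing notes, TopHat2 and the builds GRCm38 and mm10 were used. Which tool counted, whether it used strand, and whether a count is a read or a molecule is not given in the sources used here. The labels' protocols describe polyA capture and a TruSeq library, while the descriptions name 10x Genomics. The same 96 barcodes were used on every plate, so a barcode names a well only within its plate. Doublets were not called.

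Of 55453 genes in the deposited counts, 54586 (98.4%) were matched by symbol to GENCODE M21. Wells with at least 2000 genes were kept, summed per plate and morpholino, filtered with filterByExpr, scaled by TMM and tested with edgeR 4.0.16 (limma 3.58.1, R 4.3.3), with the plate as a block. The plate pairs the sums by construction, and the deviations of its 2 sums correlated at -0.0177 over 8454 genes. Log2 fold changes per plate used a prior count of 2. DESeq2 was version 1.42.0. Python 3.11.15 served for other values (pandas 2.3.3, numpy 2.4.6, scipy 1.17.1) and for figures (matplotlib 3.10.9). In simulated data for this comparison (8089 genes), the fit recovered 39.8% of the 2-fold and 92.9% of the 4-fold changes, 0 with the wrong sign, and 9 of 140 calls (6.43%) were unchanged genes. The simulated counts took their spread from the fitted trend, with no spread of a gene's own and the same level in both plates. These shares therefore hold under the fit's own assumption and cannot say how many of the reported calls are false.

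Named genes were Nkx1-2, the 12 largest changes in each direction among genes that passed, kept their direction in both plates and without their highest well, were not unnamed models and had a level of 20 CPM under at least 1 morpholino, the members of each list that passed or had the smallest p, calls in the rows U2af1 to V1rg10, and a set of lineage and nucleolar genes. Genes named for the number of alternatives passed, and the small heat shock and small nucleolar RNA host lists, were chosen after their values were seen. The wells, lists and rules were chosen with earlier results of these data known. Sharing of sequence is the percent of short transcript stretches of a gene found again in other genes.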

Additional observations from a re-analysis of the deposited data

Results flagged for a closer look

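The effect of the morpholino on Apoa1 was not the same at both stages, with a log2 difference (blastocyst minus morula) of -4.22 (SE 0.48, adjusted p = 0.00146, quasi-likelihood test of the interaction in edgeR). In the fit of all 4 plates its log2 fold change was -1.38 in the blastocyst and 2.84 in the morula. In blastocyst plate 1, 1 well held 32 of the 75 control counts of Apoa1. Without its highest well the blastocyst value was -1.06 in the edgeR fit of the blastocyst plates (adjusted p = 0.373). No gene passed in that fit, so this p-value is not particular to Apoa1. The noncoding gene model 4930500L23Rik differed by 2.25 (SE 0.34, adjusted p = 0.0359), with log2 fold changes of 2.28 in the blastocyst and 0.03 in the morula. In the blastocyst sums 4930500L23Rik was at 11.6 and 14.6 CPM in control and at 41.9 and 83.9 CPM in NKX1-2 wells, and it had a count in 23 of 86 control and 63 of 91 NKX1-2 wells.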

How the results depend on the processing

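As reported, 67 genes were higher and 63 lower. The counts were 3 and 2 with DESeq2, 55 and 28 without the filter on low counts, 29 and 27 with every well, 27 and 28 with wells of at least 4000 genes, 42 and 37 with all 4 plates in the fit, 3 and 9 in female-class wells, 7 and 11 in male-class wells, and 6 and 5 with plate and sex class as a block. Without the replicate block (no plate term), 11 were higher and 8 lower, with 2 residual degrees of freedom in place of 1. Both counts were 0 with deep wells thinned to the plate median (392 higher and 350 lower at an unadjusted p under 0.05) and with each gene without its highest well (374 and 365), by edgeR. Without replicate 1 or replicate 2, with the morula plates in the fit so that the lone blastocyst plate was assumed to vary like them, 291 to 356 genes were higher and 209 to 344 lower, of which 46 and 53 of the higher and 45 and 50 of the lower genes were among those reported. With RLE size factors 65 and 59 passed, and with limma voom 52 and 57. Directions reversed for Tigar (0.076) and Hspb1 (0.48) in male-class wells and for S100a10 (0.24), Oasl2 (-0.14), Cryab (0.31) and Urod (0.066) in female-class wells. Over the named genes that passed, 381 values under alternatives still passed, 470 did not and 6 reversed. In the fits with thinned wells and without the highest well, the median weight of the trend over all genes was 8.48 and 7.64. As reported it was infinite (prior degrees of freedom in each case). The cause of the changes in calls was not tested. The fit as reported had 1 residual degree of freedom, the depth of the sums limits genes under about 20 CPM, and 54 of 122 differences in the share of wells moved by more than the spread between plates when wells were thinned.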

Other observations

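A group named small heat shock proteins, most of them chaperones that hold unfolded proteins, was put together after values were seen. Of 4 tested members 3 fell, Hspb1 (-1.31, SE 0.31, adjusted p = 0.00335, edgeR), Hspb8 (-1.53, SE 0.42, adjusted p = 0.0261) and Cryab, the alpha-B crystallin (-1.06, SE 0.31, adjusted p = 0.0495), and the median was -1.19 against -0.01 over all tested genes, of which 0.745% fell. Hspb1 was at 61.0 and 68.1 CPM in the control sums and at 17.8 and 34.99 CPM in the NKX1-2 sums, Hspb8 at 22.3 and 34.7 against 10.7 and 9.05 CPM, and Cryab at 47.4 and 59.0 against 19.9 and 31.4 CPM. The groups of the sums did not overlap. The fourth, Hspb11, which despite its symbol is not such a chaperone, had a log2 fold change of 0.50 (SE 0.40). The median above includes it. Of the stretches of Hspb1, 52.3% are shared with other genes, so its reads are uncertain. Counts of Hspb8 were found in 7 of 43 control and 10 of 47 NKX1-2 wells of plate 1 and in 16 of 43 and 9 of 44 of plate 2. In plate 1, 1 well held 10 of its 23 control counts, and in plate 2, 1 well held 29 of the 85 control counts of Cryab. Without the highest well the log2 fold changes were -1.14 for Hspb1, -1.23 for Hspb8 and -0.74 for Cryab. None of the 3 passed (adjusted p = 0.425, 0.496 and 0.537, edgeR), but no gene at all passed in that fit.

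Host genes of small nucleolar RNAs, chosen likewise, had 3 of 19 tested members lower and 0 higher, against 0.745% and 0.793% over all genes, with a median of -0.24 that was -0.34 in plate 1 and -0.08 in plate 2. Zfas1, Snhg1 and Taf1d were the 3. Gas5 was at 837 and 487 CPM in the control sums and at 447 and 495 CPM in the NKX1-2 sums (-0.44, adjusted p = 0.135), so that its plates differed. Snhg3 went from 567 to 280 CPM in plate 1 and from 345 to 314 CPM in plate 2 (-0.58, adjusted p = 0.0589), and Snhg15 from 194 to 252 CPM and from 133 to 221 CPM (0.55, adjusted p = 0.164). The summed level of the group was 4447 (control) and 2571 (NKX1-2) CPM in plate 1 and 2975 and 2607 CPM in plate 2.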
